A study of Mus musculus with 4 samples.

Results

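Broad CpG-island-like clusters were runs of closely spaced CCGG sites that covered at least 2000 bp of the mouse genome. A site was dense if it had 10 or more CCGG, itself included, within 500 bp on either side. Dense sites no more than 500 bp apart were joined into runs, and the autosomal runs spanning 2000 bp or more were kept. The rule used positions only, and none of the tag counts. It gave 93 broad runs of 9433 runs of dense sites on the autosomes. They held 4068 of 1594137 CCGG sites, or 0.255%, and lay on 18 of 19 autosomes.

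HELP tagging, a sequencing assay of cut CCGG sites, was applied to MC1-ZE7, an embryonic stem cell line from mouse strain 129S6/SvEvTac, at passage 31 and grown without feeder cells in medium with serum and leukemia inhibitory factor. The line carries Emerald, a green fluorescent protein, under the Zscan4c promoter, so fluorescence stands for activity of that promoter and not for the Zscan4 protein itself. Cells were sorted into Emerald-high and Emerald-negative fractions, and the DNA of each was cut with HpaII in 1 library and with MspI in another. The question was how DNA methylation compares in cells with an active and an inactive Zscan4c promoter. All 4 libraries came from the same reporter line, and no group had a replicate. The variation among cultures and sorts is therefore unmeasured, and no p-value is given. Intervals are 95% and cover counting error only, and tags carried no molecular identifiers.

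CpG islands are stretches of DNA rich in CG dinucleotides, and many of them lie at gene promoters. In embryonic stem cells most islands carry little methylation, while CG dinucleotides elsewhere in the genome are mostly methylated. HpaII needs an unmethylated central CG to cut CCGG, whereas MspI cuts it in either state, so more HpaII tags for the same MspI tags means less methylation at the site. Zscan4 genes are active in the 2-cell embryo and in a small, changing part of an embryonic stem cell culture.

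Genes were attached to the runs through promoter sequences from RefSeq (GRCm38.p6), each running from 250 bases before to 50 after a gene's start. A promoter was placed where the exact spacing of at least 5 CCGG in it occurred once among the deposited mm9 positions and on the gene's own chromosome. Of 32851 promoters, 2568 had 5 or more CCGG, and 2544 of these were placed. Placed promoters fell in 31 of the 93 broad runs. The 250 bases before the start are shown for 7 of them, with every CCGG in capitals: 3 whose runs had some of the largest falls in Emerald-high cells (Sp3, Nol4l, Dyrk1a), the widest run with a placed promoter (Ubtf), both forkhead genes (Foxl2, Foxp4) and the run with the smallest difference among the 31 (Zbtb7a). Each is written 5′ to 3′ on the strand of its gene. On mm9, the CCGG of the whole promoter windows spanned chr2:72818526-72818702 (Sp3, minus strand), chr2:153355659-153355874 (Nol4l, minus), chr16:94792281-94792540 (Dyrk1a, plus), chr11:102178563-102178812 (Ubtf, minus), chr9:98855840-98856069 (Foxl2, plus), chr17:48061550-48061659 (Foxp4, minus) and chr10:80598770-80598969 (Zbtb7a, plus).
Sp3: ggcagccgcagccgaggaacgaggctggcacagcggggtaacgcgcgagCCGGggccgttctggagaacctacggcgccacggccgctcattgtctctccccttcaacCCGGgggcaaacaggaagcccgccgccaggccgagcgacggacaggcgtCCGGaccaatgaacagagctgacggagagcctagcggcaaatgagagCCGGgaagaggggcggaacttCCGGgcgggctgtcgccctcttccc
Nol4l: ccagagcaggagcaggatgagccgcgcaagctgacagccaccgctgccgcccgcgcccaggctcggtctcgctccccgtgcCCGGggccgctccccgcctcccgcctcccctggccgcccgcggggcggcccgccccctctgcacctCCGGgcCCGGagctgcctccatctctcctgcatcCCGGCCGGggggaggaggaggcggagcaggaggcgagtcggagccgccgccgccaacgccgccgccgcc
Dyrk1a: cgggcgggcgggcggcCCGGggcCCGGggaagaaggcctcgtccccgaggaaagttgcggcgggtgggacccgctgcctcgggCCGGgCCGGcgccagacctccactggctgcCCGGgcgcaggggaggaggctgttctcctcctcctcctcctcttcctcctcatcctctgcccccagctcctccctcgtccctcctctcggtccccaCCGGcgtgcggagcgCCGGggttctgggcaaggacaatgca
Ubtf: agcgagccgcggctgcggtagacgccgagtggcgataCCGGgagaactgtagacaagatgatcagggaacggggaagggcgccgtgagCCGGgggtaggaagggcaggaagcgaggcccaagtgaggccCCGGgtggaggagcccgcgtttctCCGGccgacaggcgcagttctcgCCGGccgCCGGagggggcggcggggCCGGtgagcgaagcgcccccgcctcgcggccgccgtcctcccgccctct
Foxl2: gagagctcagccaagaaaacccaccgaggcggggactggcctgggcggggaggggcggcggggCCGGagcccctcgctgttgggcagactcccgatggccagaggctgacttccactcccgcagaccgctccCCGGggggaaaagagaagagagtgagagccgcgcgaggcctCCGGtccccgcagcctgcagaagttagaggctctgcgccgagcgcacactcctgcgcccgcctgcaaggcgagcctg
Foxp4: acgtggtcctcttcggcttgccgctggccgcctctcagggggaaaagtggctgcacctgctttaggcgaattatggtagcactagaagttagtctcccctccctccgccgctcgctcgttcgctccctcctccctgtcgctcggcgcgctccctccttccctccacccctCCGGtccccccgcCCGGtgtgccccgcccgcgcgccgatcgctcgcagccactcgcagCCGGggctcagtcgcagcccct
Zbtb7a: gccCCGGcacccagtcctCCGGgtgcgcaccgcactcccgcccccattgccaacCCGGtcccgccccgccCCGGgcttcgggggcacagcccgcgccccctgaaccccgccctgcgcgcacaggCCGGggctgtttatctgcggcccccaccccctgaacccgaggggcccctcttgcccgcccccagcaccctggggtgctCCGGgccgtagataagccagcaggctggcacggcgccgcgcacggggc

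The printed stretches held between 3 and 7 CCGG each, and every one of these is a position at which tags were counted. The sequence of the runs could be looked at where a promoter was placed, and not in the other runs. Over the 300-base windows of the 40 RefSeq promoter entries that were placed in broad runs, the median GC content was 75% (range 63.0 to 88.0%) and the median observed to expected CG ratio was 0.94. The medians were 72.3% and 0.92 for promoters placed in shorter runs of dense sites, and 52.7% and 0.38 for all RefSeq promoters used. The runs were chosen by CCGG density and placement required 5 CCGG, so the high CG content is fixed by the method and is no check of the label.

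The 93 runs spanned 2000 to 11351 bp, with a median of 2284 bp, and held 22 to 120 CCGG sites, with a median of 40. Just inside the limit lay runs of 2000, 2000, 2010, 2010 and 2012 bp, and just outside it runs of 1990, 1984, 1979, 1976 and 1972 bp. It separated runs with nearly the same values: the median log2 difference between fractions, defined below, was -0.71 in the 19 runs less than 100 bp above it and -0.70 in the 17 runs up to 100 bp below it.

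The broad runs fell into 4 kinds by their tags. Emerald-high cells gave library totals of 5662614 HpaII and 9372711 MspI tags, and Emerald-negative cells 9535691 and 9307616. Both MspI libraries reached 20 tags in 71 of 93 broad runs (76.3%), against 56.8% of all runs of dense sites. The other 22 had too few tags for a ratio. Among the 71, a run on chromosome 17 held most of the tags of the whole set, and a run on chromosome 12 was almost never cut by HpaII. These 2 runs were set apart after their values were seen, and sums are given with and without them. The remaining 69 are called typical runs.

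The 22 runs with few tags mostly shared the spacing of their sites with one another. Of these runs, 13 had 0 tags in all 4 libraries, where a count of 0 allows up to 3 tags per library. In 19 of the 22, at least 50% of all stretches of 5 consecutive sites had the same spacing somewhere else in the genome, and in 13 of the 22 every stretch did. By contrast, 68 of the 71 runs with enough tags had no such stretch. By shared spacing, 20 broad runs formed 3 families of 10, 7 and 3 runs, and all 20 were among the runs with few tags. On 3 chromosomes a run of this kind had the same length, 2132 bp, and the same 22 sites: chr4:31863256-31865388, chr6:66956949-66959081 and chr17:12209487-12211619. None of the 22 held a placed promoter. Placement required a spacing that occurs once, so repeated spacing works against it and this absence is no trait of the runs. The sources used here do not say how tags that match several places were treated, and the part of repeated sequence in these low counts was not tested.

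**Figure D1:**
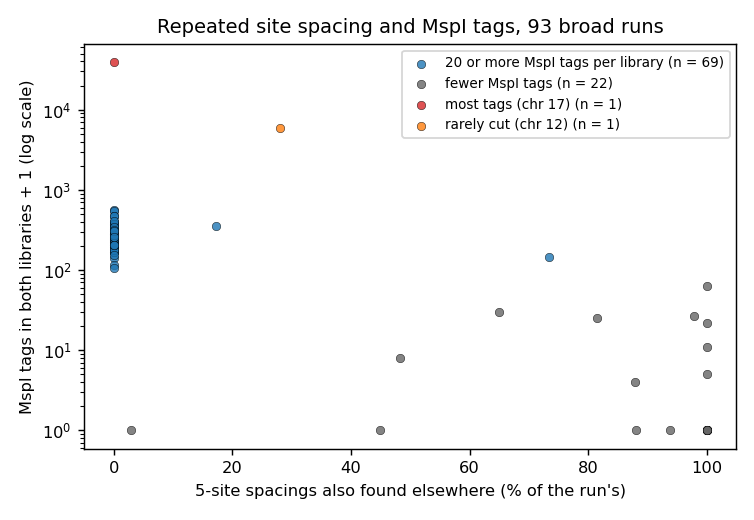
MspI tags summed over both MspI libraries, plus 1, on a log axis, against the share of a run's 5-site stretches whose spacing is also found elsewhere in the genome. Each point is 1 of the 93 broad runs. Runs without repeated spacing line the left side with more than 100 tags, and 19 of the 22 runs with few tags lie at 50% or more.

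The widest of all broad runs belonged to this group. The run chr3:93085216-93096567, of 11351 bp and 120 sites, had 0 HpaII tags in either fraction. Its MspI tags numbered 3 in the Emerald-high and 4 in the Emerald-negative library. The runs chr10:27538691-27545191 (6500 bp), chr8:53389058-53394033 (4975 bp) and chr2:21923929-21928349 (4420 bp) had 0 tags in all 4 libraries. So 4 of the 6 widest runs could not be measured in these libraries.

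Values below subtract the log2 HpaII/MspI ratio of Emerald-negative cells from that of Emerald-high cells, after scaling to library totals. A negative value means relatively less HpaII cutting, the mark of relatively more methylation, in Emerald-high cells. Scaled to totals, every value is relative to the average site of its library. When the libraries were scaled to their dense sites, every value rose by 0.72 and the median over the 71 runs moved to -0.04, so the direction of the typical runs holds relative to the rest of the genome and not relative to other dense sites.

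All 69 typical runs had more HpaII than MspI tags in both fractions after scaling to totals, and all had less HpaII cutting relative to MspI in Emerald-high cells. The chromosome 12 run, set apart for its value, went the other way. On the angle score used with HELP tagging, where 0 means no HpaII tag, 50 equal scaled tags and 100 no MspI tag, the runs lay between 83.2 and 91.8 in Emerald-negative cells, with a median of 89.5. In Emerald-high cells they lay between 72.1 and 86.6, with a median of 82.0. With no run set apart, the score was over 80 in 70 of 71 broad runs in Emerald-negative cells (98.6%), beside 97.1% of all runs of dense sites with enough tags. In Emerald-high cells it was over 80 in 64 of 71 (90.1%), beside 74.5%, and in 80.7% of runs of 1000 bp to under 2000 bp. Broad runs have more tags, so these shares are not matched for depth. The median Emerald-high score was 82.0 over the 71 runs and 82.3 over all runs of dense sites with enough tags. These levels depend on the scaling: over the 71 runs, scaling to dense sites gave median scores of 50.8 (Emerald-high) and 52.2 (Emerald-negative).

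Tag numbers per typical run ranged from 108.4 to 590 with a median of 306 for HpaII and from 65.5 to 309 with a median of 143 for MspI in Emerald-high cells. In Emerald-negative cells they ranged from 224.8 to 1475 with a median of 701 for HpaII and from 39.0 to 251 with a median of 120.0 for MspI. The log2 difference lay between -1.17 and -0.26, with a mean of -0.75 and a median of -0.76. With no run set apart, it was below 0 in 70 of 71 broad runs (98.6%), beside 95.4% of all runs of dense sites with enough tags. The counting interval lay below 0 in 64 of 71 (90.1%), beside 54.6%. Intervals are narrower in runs with more tags, and broad runs have more sites, so these shares are not matched for depth.

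Both enzymes contributed. Scaled HpaII tags were lower in Emerald-high cells in 69 of 69 typical runs, with a median log2 difference of -0.50. Scaled MspI tags, which do not depend on methylation, were higher in Emerald-high cells in 61 of 69, with a median of 0.25. Over all runs of dense sites with enough tags the medians were -0.47 for HpaII and 0.24 for MspI. The part of this MspI difference in the ratio was not tested, and the HpaII libraries alone gave the same direction in every typical run.

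The SD of the log2 difference over the 69 typical runs was 0.22, and the root mean square of their counting standard errors was 0.21. The order of most runs by this difference was therefore not resolved at this depth. Within a fraction the log2 ratio varied more than counting error gives, with an SD of 0.19 against 0.15 in Emerald-negative cells and the same rounded values in Emerald-high cells. Across the 69 runs the difference had a Pearson r of -0.15 with CCGG per kb and -0.09 with span, given as a description of runs that share 4 libraries.

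**Figure D2:**
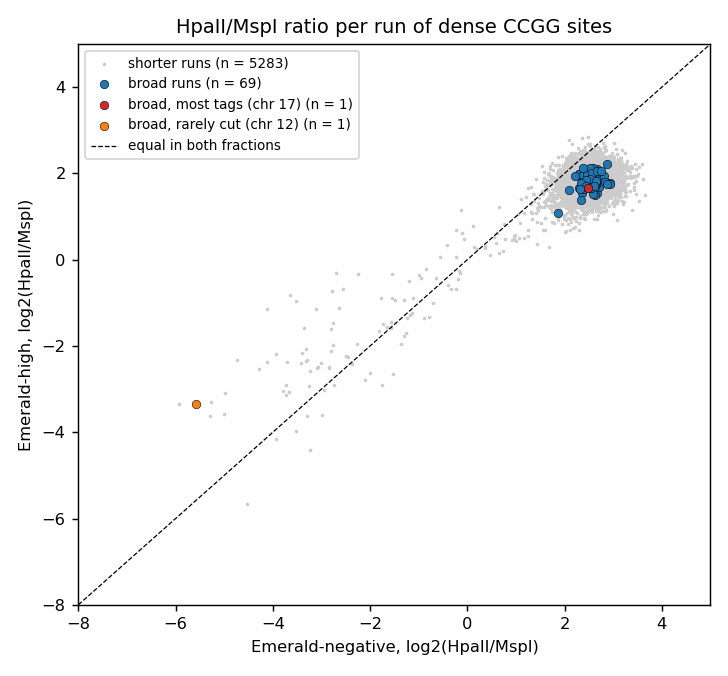
Log2 HpaII/MspI ratio, with Emerald-high cells on the y axis and Emerald-negative cells on the x axis, tags scaled to library totals with 1 tag added. Grey points are the shorter runs of dense sites with enough MspI tags (983 of 1000 bp or more and 4300 under 1000 bp), and coloured points are the 71 broad runs. The 69 typical runs and the chromosome 17 run sit below the dashed line of equal ratios, and the chromosome 12 run sits above it at the lower left.

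A run was called where its change was at least 2-fold and its counting interval left out 0. Of the 71 broad runs, 10 were called lower in Emerald-high cells (14.1%), beside 21.4% of all runs of dense sites with enough tags. In the other direction 1 was called higher, where 0.243% of all such runs were. These shares are not matched for depth, since the median counting standard error was 0.21 over the 71 runs and 0.34 over all such runs. The median log2 differences were -0.76 and -0.70. Scaled to dense sites, 0 of 71 were lower and 1 was higher, beside 0.43% and 1.46% of all runs. With a minimum of 1.5-fold in place of 2-fold, 55 of 71 were lower. The share of all runs at 1.5-fold was not computed, so this count is not read as a trait of broad runs. From the HpaII libraries alone 0 of 71 were called lower, since none of the runs fell by 2-fold in HpaII tags, so each of the 10 calls needed the MspI difference as well. From the first of the 2 deposited parts of the counts, 16 were called lower, again without a share of all runs beside it.

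Among the 10 lower runs, 5 had MspI libraries that differed by at most 0.5 on the log2 scale. The run chr2:72816785-72818999 held the promoter of Sp3, a zinc finger factor that binds GC-rich promoter elements. It had 223 HpaII and 131 MspI tags in Emerald-high cells, and 596 HpaII and 93 MspI tags in Emerald-negative cells. Further runs are given by their tags in that order of libraries. Its log2 difference was -1.14 (-1.58 to -0.70), and its score went from 89.9 in Emerald-negative to 78.3 in Emerald-high cells. The 5 CCGG of the Sp3 promoter printed above gave 58, 41, 201 and 25 tags in the same order of libraries. The promoter's own log2 difference was -1.71 (-2.53 to -0.89), so promoter and whole run lay on the same side of 0.

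The run chr2:153353634-153356215 held the promoter of Nol4l and had 253, 142, 686 and 104 tags in the same order. Its log2 difference was -1.12 (-1.54 to -0.70), and that of the promoter alone was -1.44 (-2.58 to -0.30). Its score was 90.2 in Emerald-negative cells and 79.2 in Emerald-high cells. The run chr13:55311631-55313936 lay between the placed promoters of Fgfr4 and Prelid1, a stretch in which GRCm38 lists Nsd1, a histone H3 lysine methyltransferase gene, and Rab24. It had 232, 111, 637 and 81 tags and a log2 difference of -1.14 (-1.61 to -0.68). The other 2 were chr18:61558114-61560324, at -1.02 (-1.45 to -0.58), and chr12:88223072-88225775, with 423.5, 223, 1091.5 and 168.5 tags and an interval from -1.33 to -0.67. The intervals of these 5 runs overlap one another, and each holds the median of the typical runs.

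The other 5 lower runs had MspI libraries further apart. They included the largest fall of all, -1.17 (-1.58 to -0.76) at chr4:8617161-8619375, where MspI alone differed by 0.60. Dyrk1a, which encodes a protein kinase, had its promoter in another, chr16:94790596-94792694, with 265, 130, 654 and 86 tags and a log2 difference of -1.13 (-1.57 to -0.69), MspI differing by 0.58. The remaining 3, named after their values were seen, were the run of Zbtb1 and Zbtb25 (-1.07), that of Rcc2 (-1.04) and a run on chromosome 18 (-1.01).

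**Figure D3:**
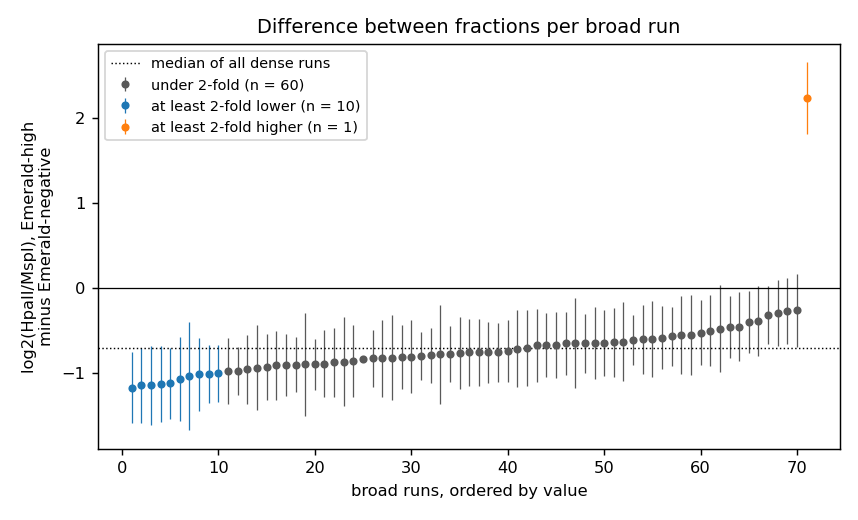
Log2 HpaII/MspI difference, Emerald-high minus Emerald-negative, for the 71 broad runs with enough MspI tags, ordered by value. Points are runs, bars are 95% counting intervals, and the dotted line is the median of all runs of dense sites with enough tags. The chromosome 12 run stands at 2.23 and the other 70 runs lie below 0.

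At the other end, 6 typical runs had intervals that reached 0, and promoters were placed in 4 runs whose value was above -0.40. The run chr10:80598891-80601137 overlapped the promoter of Zbtb7a, a zinc finger repressor, and had 252, 108, 580 and 122 tags. Its log2 difference was -0.26 (-0.69 to 0.17). The run chr17:13896884-13898908 held the promoters of Afdn, the gene of the cell junction protein afadin, and Tcte2, and stood at -0.27 (-0.66 to 0.12). That of Gm52395 stood at -0.29 (-0.68 to 0.10). That of Axin2, an inhibitor and target of Wnt signalling, had 314, 118, 718 and 121 tags and stood at -0.39 (-0.80 to 0.02). MspI tags in Zbtb7a, Gm52395 and Axin2 runs were lower in Emerald-high cells, by log2 differences of -0.18, -0.09 and -0.05, where most typical runs had higher ones.

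Among typical runs in which both MspI libraries reached 50 tags, the lowest scores in Emerald-negative cells were 83.2 at chr10:5263277-5265723, 85.5 at chr4:55543125-55545645, 86.5 at the Zbtb7a run and 87.2 at the Gm52395 run. In the first of these, 73.3% of the 5-site stretches had a spacing found elsewhere. The highest under the same minimum were 91.8 at chr4:8617161-8619375 and chr13:55311631-55313936, 91.5 at the Dyrk1a run, 91.4 at chr7:71081822-71084106 and 91.1 at chr19:4396263-4398415. With a minimum of 4 CCGG for placement, the chromosome 7 run held the promoter of Klf13, a zinc finger factor. That run also had the highest score of any broad run in Emerald-high cells, 86.6.

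The intervals of the widest typical runs held the median of the typical runs, -0.76. The run chr5:111845660-111850193, of 4533 bp and 68 sites, had 537, 302, 1322 and 251 tags and a log2 difference of -0.80 (-1.08 to -0.52). The run chr15:96115488-96119123, of 3635 bp, had 489, 225, 1112 and 174 tags and a difference of -0.79 (-1.11 to -0.47). The run chr11:102178050-102181651, of 3601 bp and 70 sites, held the promoter of Ubtf, a factor that RNA polymerase I needs to transcribe ribosomal RNA genes. It had 590, 309, 1475 and 232 tags and a difference of -0.97 (-1.25 to -0.69), below the lower quartile of the typical runs, -0.90. Summed over runs of 2000 bp to under 2500 bp, 2500 bp to under 3000 bp and 3000 bp or more, without the 2 runs set apart, the difference was -0.72, -0.79 and -0.81, with overlapping intervals.

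Placed promoters belonged to 34 genes in 31 broad runs, and all 31 were typical runs. Placement by a spacing that occurs once disfavours runs with repeated spacing. Promoters on chromosome 18 were not analysed here. The median log2 difference of the 31 runs was -0.81, against -0.75 in the 38 typical runs without a placed promoter. It was -0.71 over the 1558 runs of dense sites of any length with a placed promoter and enough tags. Counting only the CCGG inside the promoter, 29 of 34 promoters were lower in Emerald-high cells, with a median of -0.79. The promoter score was over 80 for 34 of 34 in Emerald-negative cells and for 22 of 34 in Emerald-high cells. Of all whole runs of dense sites with enough tags, 95.4% were lower, and 97.1% and 74.5% scored over 80. Promoters had fewer tags and no minimum of MspI tags, so these shares are not matched for depth. The 5 promoters above 0 were those of Axin2 (1.28, from 19, 1, 34 and 4 tags), Fzd10 (0.64), Foxp4 (0.16), Hic1 (0.08) and Adcy5 (0.05), named after their values were seen. Each of their intervals holds 0, and their runs as a whole lay below 0. Promoters lay in the middle 50% of the run's span in 14 runs and toward its ends in 17.

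**Figure D4:**
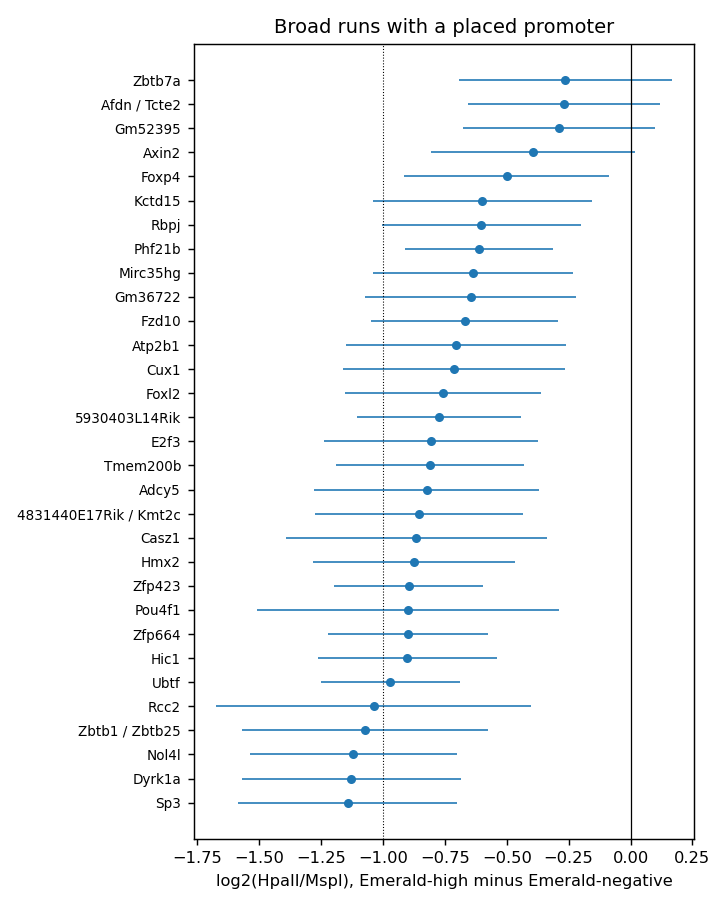
Log2 HpaII/MspI difference, Emerald-high minus Emerald-negative, for the 31 broad runs with a placed promoter, labelled by gene. Points are whole runs, bars are 95% counting intervals, the solid line marks 0 and the dotted line a 2-fold fall. All 31 lie below 0, from Sp3 at -1.14 to Zbtb7a at -0.26.

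Developmental transcription factors of the fixed list (such as Hox, Pax, Sox and Fox genes) had placed promoters in 18 runs of dense sites, and 2 of these were broad. The run of Foxl2, a forkhead factor of ovarian cells, chr9:98855410-98857509, had 307.8, 141.8, 774.5 and 124.2 tags and a difference of -0.76 (-1.15 to -0.36). The run of Foxp4, another forkhead factor, chr17:48059571-48061659, had 293, 124, 665 and 117 tags and a difference of -0.50 (-0.91 to -0.09). The median of these 2 was -0.63, and that of the 17 runs of the list with enough tags was -0.64. Scaling to dense sites brings runs of dense sites near 0 as a set. With it, 31 of the 71 broad runs stood above 0, and the share of all runs above 0 was not computed. The Foxp4 run was among them, at 0.22 with a counting interval that holds 0, and the Foxl2 run was not. Wnt and Fgf ligands were placed in 10 runs of dense sites, histone genes in 3, the DNA methylation machinery in 3 and imprinted genes in 2, and 0 of these were broad. Protocadherins and the listed pluripotency genes had 0 placed promoters in runs of dense sites, so neither list was measured here. With at least 4 CCGG, 35 broad runs had a placed promoter, and Klf13, Foxd2, Arid1a and Phf13 were added.

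A further 6 genes of broad runs were picked outside the naming rule, with their values known, for their familiar roles. The run of Hic1, a transcriptional repressor, had 403, 186, 909 and 132 tags and stood at -0.90. The run of Pou4f1, a POU factor of sensory neurons, had 133.5, 65.5, 309 and 47.5 tags and stood at -0.90. The run of Kmt2c, a histone H3 lysine methyltransferase, stood at -0.85 and that of E2f3, a cell cycle transcription factor, at -0.81. The run of Fzd10, a Wnt receptor, stood at -0.67 and that of Rbpj, the DNA-binding effector of Notch signalling, at -0.60. Their intervals all leave out 0 and all hold the median of the typical runs.

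The chromosome 12 run went the other way. The run chr12:5061570-5066490, of 4920 bp and 104 sites, was the fourth widest of all broad runs and lay between the placed promoters of Ubxn2a and 2810032G03Rik. It had 170.2 HpaII and 2892 MspI tags in Emerald-high cells and 62.8 HpaII and 2979 MspI tags in Emerald-negative cells. MspI tags were thus nearly the same in both fractions while HpaII tags were few, with scores of 6.18 for Emerald-high cells and 1.31 for Emerald-negative cells. Its log2 difference was 2.23 (1.81 to 2.65), the only rise among the 71. At 74 of its 104 sites Emerald-high cells had more scaled HpaII tags, and at 4 they had fewer. The same fractional counts recur at many of these sites, so the sites are not separate observations. Among the 43 sites with whole tags, Emerald-high cells had more at 25 and fewer at 1. Fractions of a tag were found at 58.7% of its sites. Of its stretches of 5 consecutive sites, 28% had a spacing found elsewhere and 54% had one repeated within the run. The part of repeated sequence in this rise was not tested. The 43 sites with whole tags gave 50, 767, 13 and 782 tags and a difference of 2.65 (1.79 to 3.52), and without the 5 sites with most MspI tags the difference was 2.33. Rarely cut runs were uncommon: 7 of 983 runs of 1000 bp to under 2000 bp and 54 of 4300 shorter ones had a score under 20 in Emerald-negative cells. GRCm38 lists 5 genes between the flanking promoters, Atad2b, Gm23167, Gm9110, Klhl29 and Gm51980, and which of them the run lies in was not analysed here.

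The chromosome 17 run, chr17:39981493-39983807, of 40 sites, held 42199, 22188.5, 96081 and 16762 tags, against medians of 306, 143, 701 and 120.0 in typical runs. Its log2 difference was -0.83, and its MspI tags alone differed by 0.39. It lay between the placed promoters of Gnl1 and Cenpq, among whose 180 intervening genes in GRCm38 is Rn18s-rs5, a ribosomal RNA gene. Whether the run holds that gene was not tested.

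These 2 runs weigh heavily in sums over all broad runs. All 93 runs together held 1.14% of Emerald-high and 1.55% of Emerald-negative HpaII tags, and 0.379% and 0.304% of MspI tags. Without the 2 runs the shares, in the same order, were 0.387%, 0.541%, 0.111% and 0.0923%. The pooled log2 difference was -0.76 (-0.79 to -0.74) over all runs and -0.75 (-0.80 to -0.70) without both. Without the chromosome 17 run alone it was -0.67, and without the chromosome 12 run alone -0.80. The unlogged HpaII/MspI ratio without both was 3.48 for Emerald-high cells and 5.86 for Emerald-negative cells.

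Broad runs and runs of 1000 bp to under 2000 bp had nearly the same pooled difference between fractions. Without the 2 runs set apart, their pooled difference was lower by 0.005 on the log2 scale, with an interval of the difference from -0.055 to 0.045. Against runs under 1000 bp it was -0.046 (-0.094 to 0.002). With those 2 runs left out of the broad class only, its log2 ratio exceeded that of runs under 1000 bp in both fractions. The gap was 0.09 (0.05 to 0.12) within Emerald-negative cells and 0.04 (0.008 to 0.08) within Emerald-high cells. With all 93 broad runs it was reversed, at -0.12 (-0.14 to -0.10) and -0.17 (-0.19 to -0.15), so its sign rests on the runs left out. By chromosome, the pooled difference of broad runs was -0.77 ± 0.19 (SD over 18 autosomes, which share the 4 libraries) and below 0 on 18 of 18, while its gap to runs under 1000 bp was -0.07 ± 0.19 and below 0 on 10 of 18.

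The centre of a run, the middle 50% of its span, was compared with its edges, the outer 25% on each side. Over all 93 runs, centre minus edges was -0.03 in Emerald-high cells, 0.16 in Emerald-negative cells and -0.18 (-0.23 to -0.13) in the difference between them. The chromosome 17 run alone gave -0.27 (-0.34 to -0.20). Without both runs set apart, centre minus edges was -0.08 (-0.15 to -0.01) in Emerald-high cells, -0.01 (-0.08 to 0.06) in Emerald-negative cells and -0.07 (-0.16 to 0.03) in the difference. Run by run, the centre was below the edges in 39 of 68 runs in Emerald-high cells (52.8% of all runs of dense sites with enough tags in both places), in 35 of 68 in Emerald-negative cells (44.1%) and in 41 of 68 in the difference (56.4%). Without both runs, the interval left out 0 in Emerald-high cells and held it in Emerald-negative cells and in the difference.

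A gradient appeared at the run's own boundary and beyond it. In typical runs the difference between fractions was -0.82 at sites 1000 bp or more from a run end, -0.79 at 750 to 1000 bp, -0.78 at 500 to 750 bp and -0.83 at 250 to 500 bp. In the outermost 250 bp it stood at -0.59 (-0.68 to -0.49), and in the first 250 bp outside the run it was -0.24 (-0.41 to -0.07). Further out it lay between -0.46 and -0.09 up to 10000 bp. Farther outside the runs HpaII cutting fell in both fractions. The log2 ratio in Emerald-negative cells went from 2.56 deep inside to 2.24 just outside and 0.77 between 5000 and 10000 bp out, and in Emerald-high cells from 1.75 to 2.00 and 0.61. So in Emerald-high cells the ratio just outside a run was higher than deep inside it, while in Emerald-negative cells it was lower, with intervals that do not overlap in either fraction. The MspI libraries changed along the same path, their log2 difference going from 0.32 deep inside to 0.18 in the outermost 250 bp and 0.02 just outside. The part of this MspI change in the gradient was not tested. HpaII tags alone went from -0.50 to -0.40 and -0.22 over the same places. Run ends are set by CCGG density, which changed there too. The mean number of CCGG within 500 bp of a site was 17.8 deep inside, 13.5 in the outermost 250 bp and 7.7 just outside. MspI tags per site, over both MspI libraries, were 6.2, 7.6 and 12.7. The part of site density in the gradient was not tested.

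**Figure D5:**
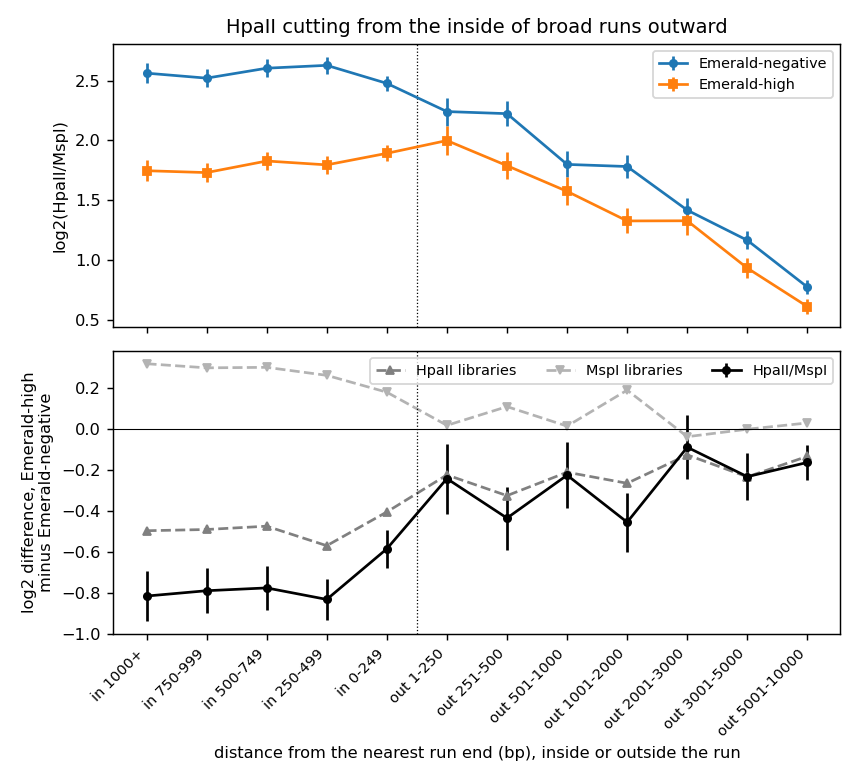
Upper panel: log2 HpaII/MspI ratio of pooled tags in each fraction by distance from the nearest run end, inside and outside the 69 typical runs, with 95% counting intervals. Lower panel: the difference between fractions for the ratio (with intervals) and for each enzyme alone. The dotted line marks the run end, where the difference goes from -0.59 to -0.24.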

How the data were processed

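Tags of 4 HELP libraries were used, 1 HpaII and 1 MspI library for each sorted fraction. The deposited files hold estimated counts of tags per CCGG position in 2 parts and their sum, with library totals per the file headers. Counts were not scaled. Genome build mm9 is named per the submitters' processing notes, and the sources used here do not name the aligner. The summed counts were added per run and scaled to library totals. Single runs had 1 tag added, pooled sums none. Log2 intervals are Poisson (z 1.96), and intervals of shares exact (Clopper-Pearson). Calls required 20 MspI tags in each MspI library. On simulated tags for Emerald-high against Emerald-negative cells in 5405 runs of dense sites, 49.0% of 100 runs changed 2-fold and 99.0% of 99 changed 4-fold were called. Calls require 2-fold, so the first share is set by that limit and is no measure of depth. The simulated tags had counting error only and no shift common to all runs. Changed runs were drawn from runs with expected MspI tags above the minimum, so real calls may be less sure. Alternatives changed density, gaps, span, scaling, tag part, edges and sites kept.

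The members, lists and alternatives were chosen with earlier results of these data known. Named runs were the 8 widest, up to 8 called runs per direction (falls with MspI differing by at most 0.5), the 5 lowest and 5 highest Emerald-negative scores (50 MspI tags or more per library), and up to 4 per gene list. Python 3.11.15, numpy 2.4.6, pandas 2.3.3 and matplotlib 3.10.9 were used.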

Additional observations from a re-analysis of the deposited data

Results flagged for a closer look

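The 2 enzymes moved opposite ways in the broad runs, as they did over all runs of dense sites. Without the chromosome 17 and chromosome 12 runs set apart in the report, pooled scaled HpaII tags were lower in Emerald-high cells by a log2 difference of -0.48 and MspI tags higher by 0.27, which together give the ratio's difference of -0.75. The same held run by run for HpaII in 69 of 69 typical runs and for MspI in 61 of 69. The difference between the enzymes was not tested, since each had 1 library per fraction.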

How the results depend on the processing

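With 1 library per group no library could be left out, and no spread between cultures or sorts was measured. No paired analysis was possible because each group had 1 library. Values rest on library totals, on a separate MspI library per fraction, and on a treatment of repeated sequence that the sources used here do not describe. Between all runs of dense sites the MspI libraries varied 1.20 times as much as counting error gives. Of 174 alternatives to 15 results, 89 left the value within its error or the count within 1.5 times, 73 moved it and 12 reversed its sign, all 12 in small gaps between run classes or between centre and edges, and the cause was not tested. The 20 named runs kept their direction where called, and 36 of 178 alternatives moved one by more than its error. The 3 alternatives that set runs apart, and placement by 4 CCGG, were chosen after seeing the data. Middle runs span 1000 bp to under 2000 bp, or to under 3000 bp where broad runs start at 3000 bp. Short runs span under 1000 bp. Counts of called runs below stand without a share of all runs of dense sites and are not read as traits of broad runs. Shares are of HpaII and MspI tags in Emerald-high cells, then of HpaII and MspI tags in Emerald-negative cells.

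With HpaII libraries alone, the gap to middle runs was 0.040, the gap to short runs was 0.011 and 0 runs were called lower. The pooled difference was -0.45 and centre minus edges in the difference was -0.012. From the first part of the counts alone, the gap to middle runs was 0.11, the gap to short runs was 0.068 and 16 runs were called lower. The pooled difference was -0.65. From the second part alone, the gap to middle runs was -0.14, the gap to short runs was -0.18 and the pooled difference was -0.88. With sites of whole tags, the gap to middle runs was -0.056, the gap to short runs was -0.091 and the pooled difference was -0.81. Runs of 3000 bp or more numbered 14 and included the chromosome 12 run. The pooled difference of the other 13 was -0.81. With all 14, the gap to middle runs was 0.25, the gap to short runs was 0.19 and the pooled difference was -0.52. Centre minus edges in Emerald-high cells was -0.20, centre minus edges in Emerald-negative cells was -0.28 and centre minus edges in the difference was 0.075, and broad runs held 0.0658%, 0.0496%, 0.0895% and 0.0471%. Without the 0.1% of sites richest in MspI tags, the gap to middle runs was 0.049, the gap to short runs was 0.0097 and the pooled difference was -0.71. Centre minus edges in Emerald-high cells was -0.12, centre minus edges in Emerald-negative cells was -0.085 and centre minus edges in the difference was -0.036. Without the chromosome 17 run, the gap to middle runs was 0.081, the gap to short runs was 0.040 and the pooled difference was -0.67. Centre minus edges in Emerald-high cells was -0.12, centre minus edges in Emerald-negative cells was -0.094 and centre minus edges in the difference was -0.026, and broad runs held 0.390%, 0.142%, 0.542% and 0.124%. Without the chromosome 12 run, the gap to middle runs was -0.058, the gap to short runs was -0.099 and 0 runs were called higher. The pooled difference was -0.80, and broad runs held 0.348% and 0.272% of the MspI tags of each fraction. Without both runs set apart, 0 runs were called higher, centre minus edges in Emerald-high cells was -0.079 and centre minus edges in Emerald-negative cells was -0.011. Centre minus edges in the difference was -0.068, and broad runs held 0.387%, 0.111%, 0.541% and 0.0923%. At 1.5-fold, 55 runs were called lower. Scaled to dense sites, 0 runs were called lower, the median Emerald-high score was 50.8 and the median Emerald-negative score was 52.2. The pooled difference was -0.042. With 12 or more CCGG in the window (40 runs), the pooled difference was -0.80, centre minus edges in Emerald-negative cells was 0.013 and centre minus edges in the difference was -0.057, and broad runs held 0.852%, 0.295%, 1.17% and 0.233%. With 8 or more CCGG (202 runs), the pooled difference was -0.72, centre minus edges in Emerald-high cells was 0.12 and centre minus edges in the difference was -0.0088, and broad runs held 1.91%, 0.614%, 2.60% and 0.506%. With edges as the last 500 bp, centre minus edges in Emerald-high cells was -0.16, centre minus edges in Emerald-negative cells was -0.083 and centre minus edges in the difference was -0.075. With gaps of at most 250 bp (54 runs), centre minus edges in Emerald-high cells was 0.021 and centre minus edges in Emerald-negative cells was 0.24, and broad runs held 0.931%, 0.321%, 1.26% and 0.255%. With sites having no CCGG within 50 bp, centre minus edges in Emerald-high cells was -0.16 and centre minus edges in Emerald-negative cells was -0.017.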

Other observations

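Within typical runs the number of tags depended on the distance to the next CCGG. Sites with another CCGG 4 to 19 bp away had 3.17 MspI tags per site over both MspI libraries, and 37.4% of 1249 such sites had none. Sites whose nearest CCGG was 20 to 49 bp away had 8.51 tags per site, those at 50 to 99 bp 10.7 and those at 100 to 500 bp 11.2. The log2 HpaII/MspI difference between fractions was -0.76 (-0.86 to -0.66), -0.84 (-0.91 to -0.77), -0.60 (-0.70 to -0.51) and -0.59 (-0.77 to -0.41) over the same classes.

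Of 2844 sites in typical runs, 568 had no MspI tag in either library, and 203 of these had HpaII tags. Of 712 sites with 10 or more MspI tags, 0 lacked HpaII tags. The deposited counts come in 2 parts whose meaning the sources used here do not give. Across the 69 typical runs, the difference computed from one part and that from the other had a Pearson r of -0.28 and a Spearman rho of -0.29, given as a description of runs that share 4 libraries.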
